A study of Homo sapiens with 6 samples.

Results

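MHC class I and class II molecules, the proteins that load them with peptide and 2 related ligands of lymphocyte receptors were followed as a list of 37 genes in MDA-MB-231, an established human cell line of triple-negative breast cancer. The genes were picked by symbol, each was read on the brightest of its probe sets (mean of 6 arrays), and 35 of the 37 were measured among 19775 genes on the array. Of those 35, 20 lie on chromosome 6, which holds the MHC, and 15 on other chromosomes. The 3 knockdown clones came from cells infected with pSM2 retroviral vectors that carried either of 2 hairpins against WASF3, and the 3 control clones from cells infected with the empty vector or with a hairpin against GFP. Both groups are single clones at passage 4, selected in 1.0 µg/ml puromycin over 2 weeks, with 1 array for each clone. The labels do not tie a hairpin or vector to a clone, so a difference between clones and a difference between hairpins cannot be told apart. WASF3 encodes an activator of branched actin growth, and the series asks which transcripts differ when it is kept low.

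Class I molecules, built from a heavy chain and the light chain B2M, show peptides from inside the cell to CD8+ T cells. The proteasome cuts these peptides, the TAP transporter carries them into the endoplasmic reticulum, aminopeptidases trim them there, and tapasin and its partners load them. Class II molecules show peptides from endosomes to CD4+ T cells. They travel with the invariant chain CD74, and HLA-DM exchanges a remnant of that chain for peptide after cathepsins have cut it. Interferon gamma is known to induce most of these genes in epithelial and tumour cells, class I genes through NLRC5 and IRF1 and class II genes through CIITA, a coactivator that is recruited to the X and Y boxes upstream of class II genes.

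All values below are log2 RMA signals. A change is knockdown minus control with its standard error from limma, and a gene is called when its p-value, adjusted over all 54613 probe sets, is under 0.05. Each knockdown clone was also set alone against the mean of the 3 control clones. In that second comparison the lone clone is assumed to vary as the control clones do, so its p-value concerns that clone and not WASF3 knockdown in general. No label says that the clones came from separate infections, so p-values measure the spread between these clones only. Levels of different probe sets are not comparable with each other.

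Promoter sequence is shown for members that the single clones set apart. Of the 2 known regulatory routes, motifs of a single route were marked in capitals for each gene. The sequences are the 150 bases before the annotated start, 5′ to 3′ on the minus strand, from RefSeq on GRCh38.p14. In the first 3, class II route genes that were higher in knockdown clone 2, the capitals mark X box letters (CNGATGATG) and, where present, the Y box (CTGATTGG). In the other 2, TAP2 and the immunoproteasome gene PSMB10, they mark the core of an interferon-stimulated response element (GAAANNGAA). The HLA-DRB1 stretch also holds these response element letters on the other strand (ttctgtttc), left in lower case.
HLA-DRB1, chr6:32589849-32589998: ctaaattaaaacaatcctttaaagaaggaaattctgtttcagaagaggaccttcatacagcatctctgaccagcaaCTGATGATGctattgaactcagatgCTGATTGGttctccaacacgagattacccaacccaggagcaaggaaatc
HLA-DMA, chr6:32953098-32953247: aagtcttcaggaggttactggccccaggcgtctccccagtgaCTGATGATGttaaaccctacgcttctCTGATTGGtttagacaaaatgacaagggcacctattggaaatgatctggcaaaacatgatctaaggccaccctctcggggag
HLA-DMB, chr6:32941029-32941178: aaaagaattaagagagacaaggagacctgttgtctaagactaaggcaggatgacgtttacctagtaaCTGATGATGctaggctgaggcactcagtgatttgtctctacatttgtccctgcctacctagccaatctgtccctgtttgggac
TAP2, chr6:32838740-32838889: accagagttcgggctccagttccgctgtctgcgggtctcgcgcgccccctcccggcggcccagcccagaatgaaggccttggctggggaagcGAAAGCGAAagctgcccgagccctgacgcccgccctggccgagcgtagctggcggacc
PSMB10, chr16:67936851-67937000: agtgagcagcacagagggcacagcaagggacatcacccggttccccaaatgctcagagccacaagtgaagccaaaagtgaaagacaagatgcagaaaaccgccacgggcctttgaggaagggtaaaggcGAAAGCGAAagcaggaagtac

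Motifs were searched on both strands in windows from 250 bases before to 50 bases after the start. RefSeq windows were at hand for 29 of the 37 genes. The response element letters were in the windows of 15 of them (HLA-F, B2M, TAP1, TAP2, TAPBP, PSMB8, PSMB10, PSME1, PSME2, ERAP1, ERAP2, HLA-DRB1, HLA-DPA1, CD74 and HLA-DMB) and in 8.11% of all 35116 windows. The Y box letters were in 8 (HLA-B, HLA-C, HLA-F, HLA-G, B2M, HLA-DRB1, HLA-DQB1 and HLA-DMA) and in 3.97% of all windows. The X box letters were in HLA-DRB1, HLA-DMA and HLA-DMB and in 0.701% of all windows, and were chosen after these windows had been read. The motifs did not overlap each other in the sequences printed. A match is a description of the letters and not evidence of a bound factor.

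Between the 3 knockdown clones and the 3 control clones as groups, none of the 35 genes passed the threshold. The count was 0 of 35 in limma, where 0.738% of all genes were called (0.319% higher and 0.420% lower). Before adjustment, 5 genes had a p under 0.05, MICA higher and TAPBP, TAPBPL, PSMB10 and CTSS lower, against 16.8% of all genes at that level. The groups did not overlap in 7 of the 35 genes (20.0%), against 24.7% of all genes: MICA lay above the controls, where 12.1% of all genes did, and B2M, TAPBP, TAPBPL, PSMB7, PSMB10 and CTSS below them, where 12.6% did. The median change was −0.01 over the members and −0.01 over all genes. Group calls over the array moved from 2 to 1225 when single clones were left out, and the members' count from 0 to 4, as detailed at the close.

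The single knockdown clones, however, lay apart from each other in these genes. Knockdown clone 2 had the highest signal of the 6 arrays in 20 of the 35 genes (57.1%), against 17.9% of all genes, and the lowest in 0, against 20.5%. Knockdown clone 3 had the lowest signal in 20 of the 35 (57.1%), against 25.9% of all genes, and the highest in 3 (8.57%), against 22.6%. Clone 1 had the highest signal in 3 (8.57%), against 20.7% of all genes, and the lowest in 8 (22.9%), against 18.8%. The range over the knockdown clones exceeded that over the control clones in 31 of the 35, against 76.7% of all genes. In 11 genes clone 2 was the highest and clone 3 the lowest array (31.4%, against 6.05% of all genes): TAP1, TAP2, PSMB8, PSMB9, PSME1, ERAP2, HLA-DRA, HLA-DRB1, HLA-DPA1, HLA-DPB1 and CD74. The members' median change against the controls was −0.13, 0.17 and −0.18 in knockdown clones 1, 2 and 3, where the medians over all genes were 0.00, −0.02 and −0.02. These shares, and those of the calls that follow, are descriptions, because the genes share arrays and are not independent of each other. The list was also chosen with earlier results of these data known, so no share is a test of it.

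**Figure D1:**
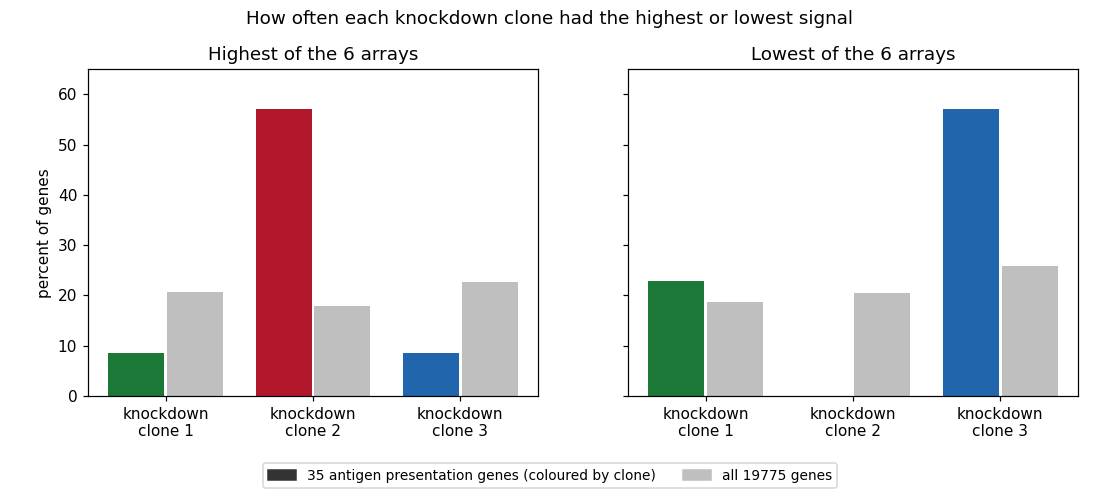
Percent of genes (y axis) for which each knockdown clone (x axis) had the highest signal (left) or the lowest signal (right) of the 6 arrays. Coloured bars are the 35 antigen presentation genes and grey bars all 19775 genes. Clone 2 was highest in 57.1% of the members and clone 3 lowest in 57.1%.

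Against the control clones alone, 18 members (51.4%) were called in at least 1 knockdown clone, where 34.0% of all genes were. In knockdown clone 1 there were 8 (22.9%, against 13.0% of all genes), 4 higher (7.20% of all genes) and 4 lower (5.80%). In clone 2 there were 11 (31.4%, against 14.5%), 10 higher (8.98% of all genes) and 1 lower (5.57%). In clone 3 there were 12 (34.3%, against 22.0%), 1 higher (10.8% of all genes) and 11 lower (11.3%). A range of 2-fold or more over the knockdown clones was seen in 8 members (22.9%), against 6.00% of all genes: TAP2, PSMB9, HLA-DRA, HLA-DRB1, HLA-DPA1, CD74, HLA-DMA and HLA-DMB. Called higher in clone 2 and lower in clone 3 were TAP2, HLA-DRA, CD74 and HLA-DMA (11.4% of members, against 0.875% of all genes), and called in the same direction in all 3 clones were MICA, higher, and CTSS, lower (5.71%, against 2.34%). The control clones varied little, with a median SD of 0.05 over the members and 0.08 over all genes. In knockdown clones the median SD was 0.26 over the members and 0.16 over all genes. A spread taken from all 6 arrays includes the tested clone's own deviation, and no share over all genes is given at that setting. With the spread taken from all 6 arrays, 0 members were called in each clone.

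**Figure D2:**
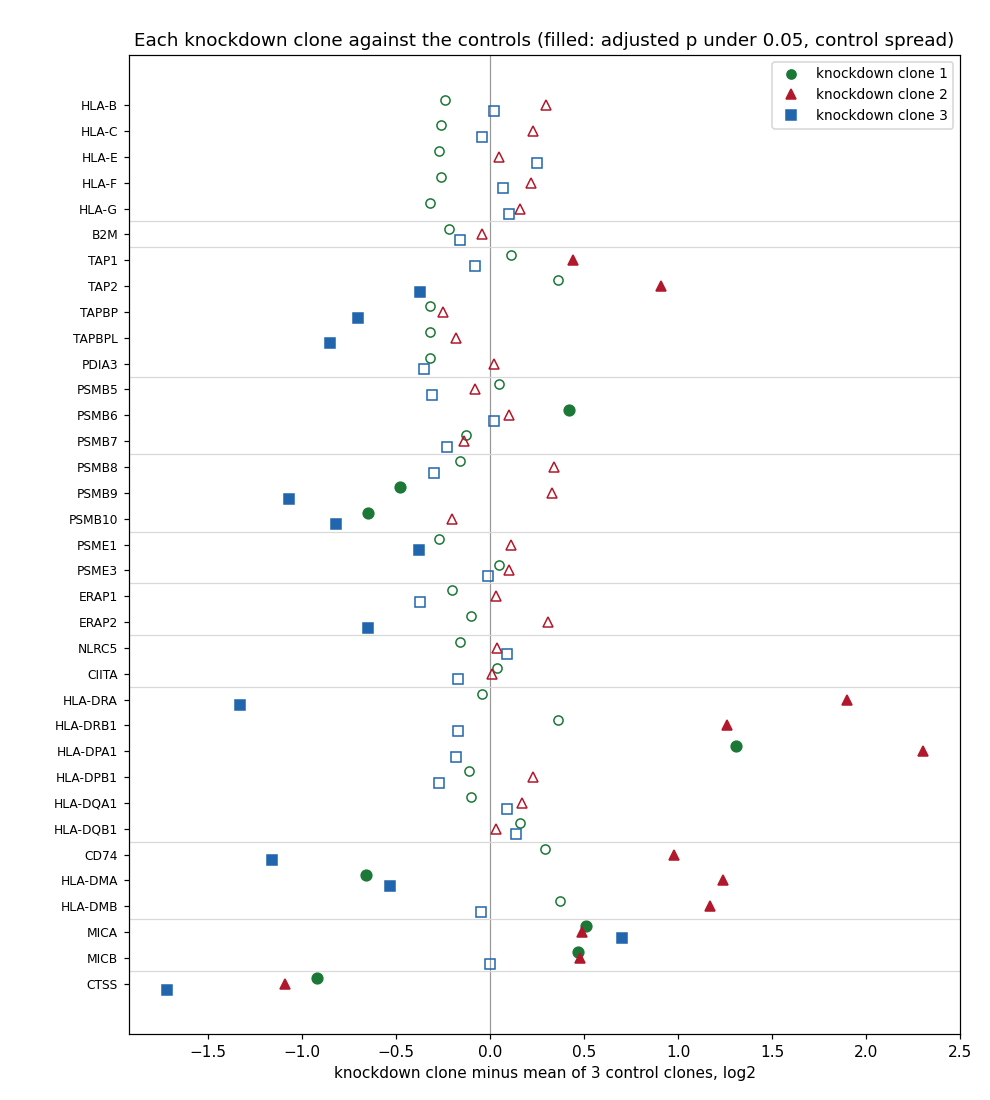
Change of each knockdown clone against the mean of the 3 control clones (x axis, log2) for the 35 measured genes (y axis), by role. Filled symbols passed an adjusted p under 0.05 with the control spread. Clone 2 lies to the right and clone 3 to the left for HLA-DRA (1.90 and −1.33), CD74 (0.98 and −1.16) and TAP2 (0.91 and −0.37).

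On their brightest probe sets the class I heavy chains, which hold the peptide, gave high signals in every clone. HLA-B read 12.91, 13.44 and 13.17 in knockdown clones 1, 2 and 3, against 13.19, 13.10 and 13.14 in control clones. HLA-C read 12.45, 12.94 and 12.67 in knockdown clones and 12.74, 12.69 and 12.71 in control clones. In both genes clone 1 was the lowest array, clone 2 the highest, and the group means were within 0.03 of each other. HLA-E, a ligand of NK cell receptors, read 11.21, 11.53 and 11.73 in knockdown clones and 11.49, 11.45 and 11.49 in control clones. HLA-F read 10.66, 11.14 and 10.99 in knockdown clones, against 10.97, 10.89 and 10.89 in control clones. HLA-G, known for its expression in trophoblast, read 11.63, 12.11 and 12.05 in knockdown clones, against 11.98, 11.92 and 11.93 in control clones. Group changes of the 5 genes lay between −0.03 and 0.03 (adjusted p for HLA-B 0.951, SE 0.14), and 0 of the 5 were called in any clone on these probe sets.

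Clone 1 was also low on nearly every other class I probe set. Over all 17 probe sets of these 5 genes, clone 1 was below all controls in 16 and clone 2 above all controls in 15. Clone 3 was above all controls in 7 and below them in 4. Clone 3 was above clone 2 on 4 of the 17, among them all 3 of HLA-E. In clone 1, 5 of the 17 passed as lower, all of them dimmer probe sets of their genes: HLA-G at −0.84 (adjusted p = 0.00838), HLA-F at −0.48 (adjusted p = 0.0332), HLA-C at −0.45 (adjusted p = 0.0313) and HLA-B at −0.59 and −0.63 (adjusted p = 0.0165 and 0.013). In clone 3, 1 of the 17 passed as higher, an HLA-E probe set at 0.42 (adjusted p = 0.0339), and in clone 2 there were 0. Of the 17, 15 are of the design type that can match related sequences, so the genes cannot be told apart fully and the 17 are not independent readings. The HLA-F probe set outside that type read 4.29, 4.47 and 4.49 in knockdown clones and 4.29, 4.27 and 4.46 in control clones. These values lie within the range of leukocyte markers given below (3.23 to 6.30). HLA-G had no probe set outside that type, so a high level of HLA-F or HLA-G itself is not shown. No share over all probe sets is given beside these counts, so they only describe these probe sets.

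**Figure D3:**
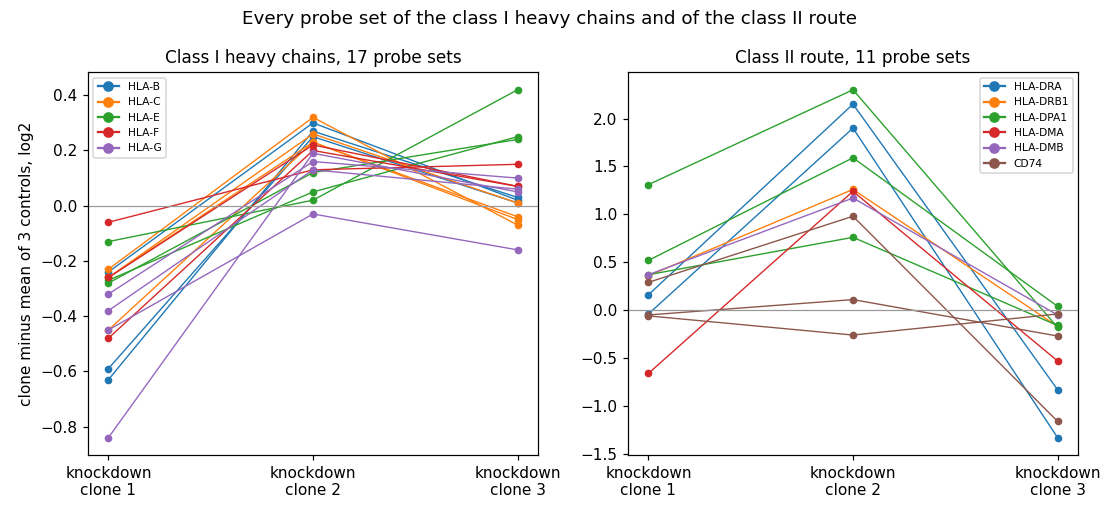
Change of each knockdown clone against the mean of the 3 control clones (y axis, log2) for every probe set of the class I heavy chains (left, 17) and of HLA-DRA, HLA-DRB1, HLA-DPA1, HLA-DMA, HLA-DMB and CD74 (right, 11); lines join 1 probe set. Clone 1 lies below all controls in 16 of the 17 class I probe sets, and clone 2 above all controls in 10 of the 11 class II route ones. No share over all probe sets is given for these counts.

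B2M, the light chain shared by all class I molecules, read 13.94, 14.11 and 13.99 in knockdown clones, against 14.15, 14.17 and 14.14 in control clones. On this probe set all 3 knockdown clones were below every control, by −0.14 (SE 0.09, adjusted p = 0.536), and neither the group nor any clone passed. The other probe sets did not share this. Another bright one changed by −0.06 with groups that overlap (knockdown clone 2 at 13.90, control clone 3 at 13.87). A dim one ran the other way, at 6.17, 6.32 and 6.34 in knockdown clones and 5.94, 6.04 and 5.76 in control clones (0.37, adjusted p = 0.183). That dim probe set lies within or at the edge of the range of leukocyte markers given below (3.23 to 6.30), so its direction is uncertain. On the bright probe sets each knockdown clone lay slightly below the control mean, by −0.22 at most.

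The peptide loading complex was divided. TAP1, which forms the peptide transporter with TAP2, read 9.47, 9.80 and 9.28 in knockdown clones, against 9.39, 9.33 and 9.36 in control clones. TAP2 read 9.79, 10.34 and 9.06 in knockdown clones, against 9.39, 9.40 and 9.49 in control clones. Both were higher in clone 2 (TAP1 0.44, adjusted p = 0.0311; TAP2 0.91, adjusted p = 0.00526), and TAP2 was lower in clone 3 (−0.37, adjusted p = 0.0459). Group changes were 0.16 (SE 0.14, adjusted p = 0.678) for TAP1 and 0.30 (SE 0.28, adjusted p = 0.699) for TAP2, whose 4 probe sets ranged from −0.06 to 0.30.

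Tapasin and its relative read below every control in all 3 knockdown clones. TAPBP, which bridges TAP and the empty class I molecule, read 9.97, 10.04 and 9.59 in knockdown clones and 10.27, 10.32 and 10.28 in control clones. TAPBPL, a tapasin-related peptide editor, read 5.87, 6.01 and 5.34 in knockdown clones, against 6.35, 6.02 and 6.20 in control clones. In both the groups did not overlap, clone 3 was lowest and passed alone (TAPBP −0.70, adjusted p = 0.00409; TAPBPL −0.85, adjusted p = 0.00935). The group changes of −0.42 (SE 0.13, adjusted p = 0.207) and −0.45 (SE 0.18, adjusted p = 0.331) did not pass. PDIA3, the disulphide isomerase of the complex, read 9.20, 9.54 and 9.17 in knockdown clones and 9.58, 9.54 and 9.44 in control clones, with a group change of −0.22 (adjusted p = 0.481). Its dimmer probe sets changed by −0.49 and −0.45 (adjusted p = 0.137 and 0.567) and both were lower in clone 3 (−0.73, adjusted p = 0.00463, and −1.21, adjusted p = 0.00363). The first of them was also lower in clone 1 (−0.44, adjusted p = 0.0386).

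The immunoproteasome subunits replace the standard catalytic subunits after interferon, and over the knockdown clones their range was 1.40 for PSMB9, 0.64 for PSMB8 and 0.62 for PSMB10. PSMB9 read 9.06, 9.87 and 8.47 in knockdown clones, against 9.48, 9.58 and 9.56 in control clones. It was lower in clones 1 and 3 (−0.48, adjusted p = 0.0282, and −1.07, adjusted p = 0.00121), and had 0.33 in clone 2, which did not pass. PSMB10 read 8.87, 9.32 and 8.70 in knockdown clones, against 9.44, 9.58 and 9.54 in control clones, so that the groups did not overlap. It was lower in clones 1 and 3 (−0.65, adjusted p = 0.0144, and −0.82, adjusted p = 0.00332), with −0.20 in clone 2. The group changes were −0.41 (SE 0.31, adjusted p = 0.623) for PSMB9 and −0.56 (SE 0.16, adjusted p = 0.182) for PSMB10. PSMB8 read 9.90, 10.40 and 9.77 in knockdown clones and 10.02, 10.08 and 10.11 in control clones, and passed in no clone.

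The standard catalytic subunits they replace lay closer together. PSMB5 read 11.77, 11.64 and 11.41 in knockdown clones, against 11.68, 11.73 and 11.75 in control clones. PSMB7 read 12.65, 12.65 and 12.56 in knockdown clones and 12.74, 12.83 and 12.79 in control clones, without overlap (−0.17, adjusted p = 0.435). PSMB6 read 12.27, 11.95 and 11.87 in knockdown clones, against 11.79, 11.90 and 11.85 in control clones, and was higher in clone 1 (0.42, adjusted p = 0.0418).

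Of the proteasome activators, PSME1, an interferon-inducible cap subunit, read 11.61, 11.99 and 11.51 in knockdown clones, against 11.84, 11.89 and 11.91 in control clones. It was lower in clone 3 (−0.38, adjusted p = 0.0358). Its partner PSME2 had no probe set of its own symbol alone. A probe set annotated to PSME2 and MIR7703 read 11.95, 12.16 and 11.57 in knockdown clones and 12.07, 12.17 and 12.12 in control clones. PSME3, of the related nuclear activator, differed between its 4 probe sets, whose group changes ranged from 0.05 to 0.71. The brightest probe set changed by 0.05 (adjusted p = 0.856), and another by 0.06 (adjusted p = 0.851). The dimmest read 7.96, 7.86 and 6.66 in knockdown clones, against 6.86, 6.76 and 6.73 in control clones. It was higher in clones 1 and 2 (1.17 and 1.08). The remaining one had the same pattern, at 9.21, 9.35 and 8.25 in knockdown clones and 8.57, 8.41 and 8.43 in control clones (0.74 and 0.88 in clones 1 and 2).

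The aminopeptidases that trim peptide in the endoplasmic reticulum were lowest in clone 3. ERAP1 read 9.07, 9.29 and 8.90 in knockdown clones, against 9.29, 9.14 and 9.37 in control clones. ERAP2 read 7.04, 7.45 and 6.49 in knockdown clones and 7.18, 7.03 and 7.23 in control clones, and was lower in clone 3 (−0.65, adjusted p = 0.0106).

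**Figure D4:**
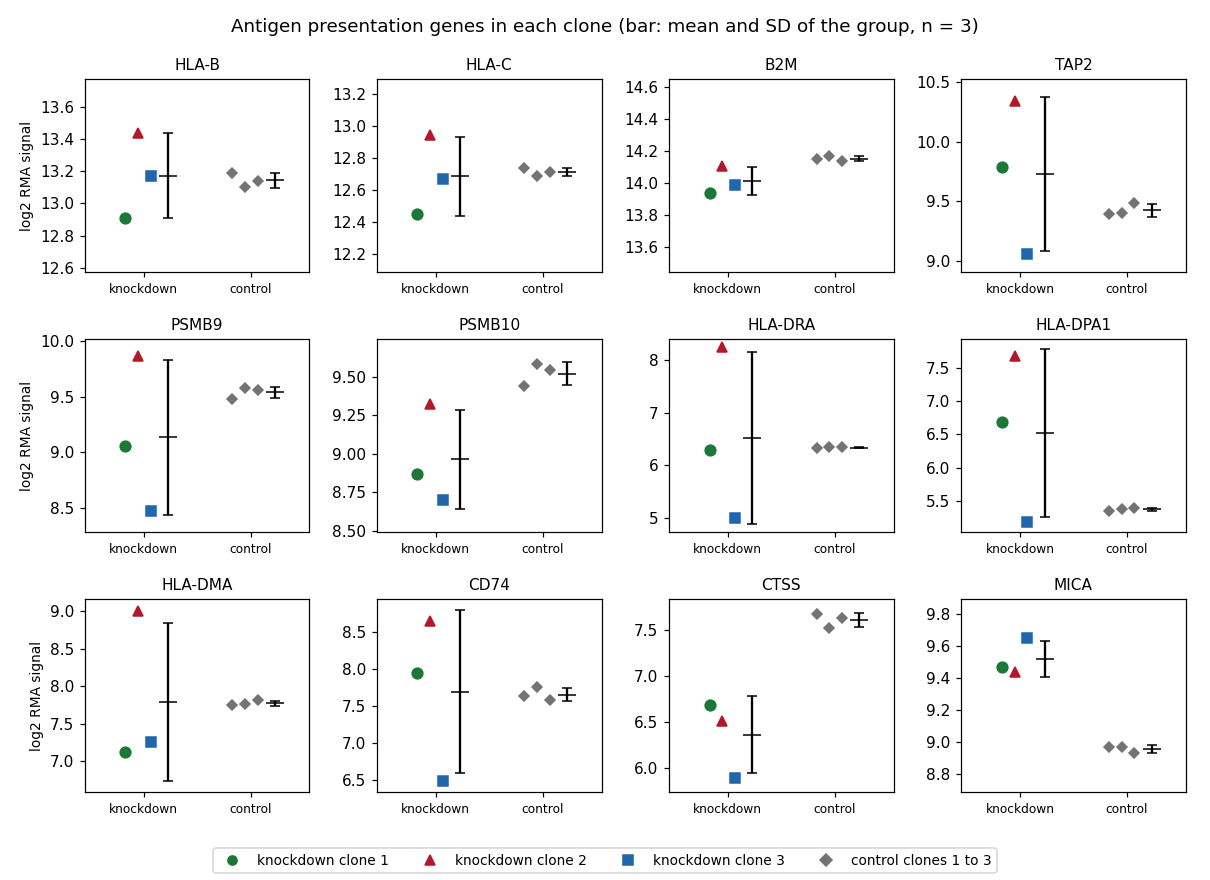
Signal (y axis, log2 RMA, each panel with its own range) of 12 of the genes in the 3 knockdown and 3 control clones (x axis); bars give group mean and SD (n = 3). The control clones sit close together in each panel. The knockdown clones spread more, as for HLA-DRA at 6.29, 8.24 and 5.01, and least for B2M and MICA (ranges of 0.18 and 0.21).

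The class II route showed the widest spread among knockdown clones. HLA-DRA, the shared alpha chain of HLA-DR, read 6.29, 8.24 and 5.01 in knockdown clones 1, 2 and 3, against 6.32, 6.34 and 6.34 in control clones. That is 3.74 times the control signal in clone 2 (change 1.90, adjusted p = 0.00069) and 39.9% of it in clone 3 (−1.33, adjusted p = 0.000573), a 9.37-fold range. The mean was 6.51 ± 1.63 in knockdown and 6.33 ± 0.01 in control clones (SD, n = 3 each), and the group change was 0.18 (SE 0.69, adjusted p = 0.941). Its other probe set, at 6.29, 8.28 and 5.29 in knockdown clones and 6.03, 6.25 and 6.11 in control clones, had the same order of clones 2 and 3.

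HLA-DPA1, the alpha chain of HLA-DP, read 6.69, 7.68 and 5.19 in knockdown clones, against 5.35, 5.38 and 5.40 in control clones. It was higher in clone 1 (2.48-fold, adjusted p = 0.00277) and in clone 2 (4.92-fold, adjusted p = 0.000384), and had −0.18 in clone 3. The group change of 1.14 (SE 0.53, adjusted p = 0.398) did not pass. Without clone 3, the clone that did not share the rise, it was 1.81 (adjusted p = 0.014). It was 1.06 without clone 1 (adjusted p = 0.4425) and 0.56 without clone 2 (adjusted p = 0.6049). Without clone 3 calls over the array also went from 146 to 1225. HLA-DRB1, a beta chain of HLA-DR, read 6.96, 7.85 and 6.43 in knockdown clones, against 6.67, 6.54 and 6.58 in control clones, and was higher in clone 2 (2.39-fold, adjusted p = 0.00217). A probe set annotated to several DRB genes and HLA-DQB1 read 6.75, 8.19 and 6.26 in knockdown clones and 6.34, 6.27 and 6.21 in control clones, so the DRB genes cannot be told apart fully here.

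The chaperones of class II also read higher in clone 2 than in clone 3. CD74 read 7.94, 8.64 and 6.49 in knockdown clones, against 7.63, 7.75 and 7.58 in control clones, higher in clone 2 (1.98-fold, adjusted p = 0.00541) and lower in clone 3 (44.6% of control, adjusted p = 0.00124). HLA-DMA read 7.12, 9.01 and 7.25 in knockdown clones, against 7.75, 7.76 and 7.81 in control clones. It was higher in clone 2 (2.36-fold, adjusted p = 0.0018) and lower in clones 1 and 3 (63.4% and 69.4% of control, adjusted p = 0.0112 and 0.0113). HLA-DMB, the other chain of HLA-DM, read 6.21, 7.01 and 5.80 in knockdown clones, against 5.64, 6.06 and 5.83 in control clones, and was higher in clone 2 (2.25-fold, adjusted p = 0.0104). None of these 3 passed between the groups, with changes of 0.04, 0.02 and 0.50 (adjusted p = 0.985, 0.992 and 0.501).

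The other class II chains passed in no clone. HLA-DPB1 read 4.01, 4.35 and 3.84 in knockdown clones and 3.91, 4.14 and 4.30 in control clones. HLA-DQA1 read 4.11, 4.39 and 4.30 in knockdown clones and 4.25, 4.35 and 4.04 in control clones, and HLA-DQB1 6.30, 6.16 and 6.27 in knockdown clones and 6.28, 5.89 and 6.25 in control clones. These levels fall within the range of leukocyte markers that this cell line does not use (mean levels from 3.23 to 6.30). So do HLA-DPA1 in control clones and clone 3, HLA-DRA in clones 1 and 3, and CTSS in clone 3. HLA-DMB lay within it on all arrays but knockdown clone 2, and TAPBPL on all arrays but control clone 1. The HLA-DRA controls lay at its edge (6.32 to 6.34), and within it on the other probe set. Values in or at the edge of this range are not shown to be above background, and the size of a fold from them is uncertain.

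Leukocytes carry class II molecules, and the mean level of their markers differed little between clones. The mean of the 16 measured markers (of 18) was 4.88, 4.77 and 4.80 in knockdown clones and 4.96, 4.91 and 4.92 in control clones, and 0 of the 16 were called in clone 2. In clone 1 NCAM1 was lower (−0.57, adjusted p = 0.036), and in clone 3 LYZ was lower (−0.55, adjusted p = 0.0117). PTPRC, the common leukocyte antigen, read 3.32, 3.11 and 3.36 in knockdown clones, against 3.05, 3.41 and 3.14 in control clones. Of the genes known to be high in MDA-MB-231, VIM, CD44, CAV1, KRT18 and MSN were high, and SPARC was low at 4.57, 3.99 and 4.63 in knockdown clones and 4.87, 4.91 and 4.82 in control clones. CDH1, low in this line, was at 7.33, 4.44 and 4.47 in knockdown clones and 5.19, 4.59 and 5.05 in control clones, so that clone 1 stood 2.39 above the control mean. Of the other markers listed as low, ESR1 and PGR were low, at most 6.11 on any array. ERBB2 was not, at 8.18, 8.05 and 7.80 in knockdown clones and 7.84, 7.92 and 7.81 in control clones. GATA3 was not either, at 7.76, 6.89 and 6.70 in knockdown clones and 7.48, 7.34 and 7.28 in control clones, lower in clones 2 and 3 (adjusted p = 0.0434 and 0.00966).

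The coactivators themselves passed in no clone on their brightest probe sets. NLRC5, the class I coactivator, read 6.27, 6.48 and 6.52 in knockdown clones, against 6.46, 6.41 and 6.42 in control clones. CIITA, the class II coactivator, read 5.48, 5.45 and 5.27 in knockdown clones, against 5.58, 5.30 and 5.44 in control clones. CIITA changed by −0.04 (SE 0.11, adjusted p = 0.908) and NLRC5 by −0.01, with adjusted p over the threshold in each clone. All CIITA values lie within the range of the leukocyte markers, so neither a level above background nor a steady level of CIITA is shown. A dimmer CIITA probe set, at 4.92, 5.31 and 4.37 in knockdown clones and 5.11, 5.01 and 4.92 in control clones, was lower in clone 3 (−0.64, adjusted p = 0.00977).

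CTSS and MICA were the members nearest to a difference between the groups. CTSS encodes cathepsin S, which cuts the invariant chain in antigen presenting cells. It read 6.69, 6.51 and 5.89 in knockdown clones, against 7.67, 7.52 and 7.63 in control clones. All 3 knockdown clones were below every control, at 42.3% of the control signal (−1.24, SE 0.20, adjusted p = 0.0521), and each passed alone (adjusted p = 0.00703, 0.00378 and 0.000425). Its other probe sets changed by −0.90 (adjusted p = 0.131) and −0.22.

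MICA and MICB encode ligands of the NK cell receptor NKG2D that appear on stressed and tumour cells. MICA read 9.47, 9.44 and 9.65 in knockdown clones, against 8.97, 8.97 and 8.93 in control clones. All 3 knockdown clones were above every control, 1.48-fold on average (0.56, SE 0.09, adjusted p = 0.0534), and each passed alone (adjusted p = 0.0204, 0.0225 and 0.00406). MICB read 10.91, 10.93 and 10.44 in knockdown clones, against 10.48, 10.44 and 10.41 in control clones, higher in clones 1 and 2 (adjusted p = 0.0278 and 0.0245) with 0.00 in clone 3. Its group change of 0.32 (SE 0.14, adjusted p = 0.372) passed without clone 3 (0.48, adjusted p = 0.0295). It did not pass without clone 1 (0.24, adjusted p = 0.4571) or without clone 2 (0.23, adjusted p = 0.5631). Clone 3 is the one that did not share the rise, and without it calls over the array went from 146 to 1225. A probe set annotated to both genes read 9.16, 9.39 and 9.41 in knockdown clones and 8.84, 8.83 and 8.90 in control clones (0.46, adjusted p = 0.0985).

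The adjusted p-values of CTSS and MICA sat at the threshold and crossed it with the settings. Both passed without knockdown clone 1 (0.024 and 0.0402) and without clone 3 (0.0079 and 0.0251), and had 0.3004 and 0.3023 without control clone 1. A sign of RNA quality moved with the groups: the 3′ minus 5′ difference of control probe sets for GAPDH and ACTB was 2.11, 1.62 and 1.66 in knockdown clones, against 1.13, 1.47 and 1.26 in control clones (exact permutation p = 0.1, the smallest that 3 against 3 allow). With this difference as a covariate the changes were −1.53 (SE 0.33, adjusted p = 0.204) for CTSS and 0.61 (SE 0.16, adjusted p = 0.251) for MICA, and its part in these differences was otherwise not tested. WASF3 itself read 5.40, 5.80 and 4.52 in knockdown clones, against 6.77, 6.42 and 6.59 in control clones (−1.35, adjusted p = 0.102 in the group fit). All 3 knockdown clones were below every control, by −1.19, −0.80 and −2.07 against the control mean. Their values lie within the range of the leukocyte markers (3.23 to 6.30), so the size of the fall is uncertain.

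**Figure D5:**
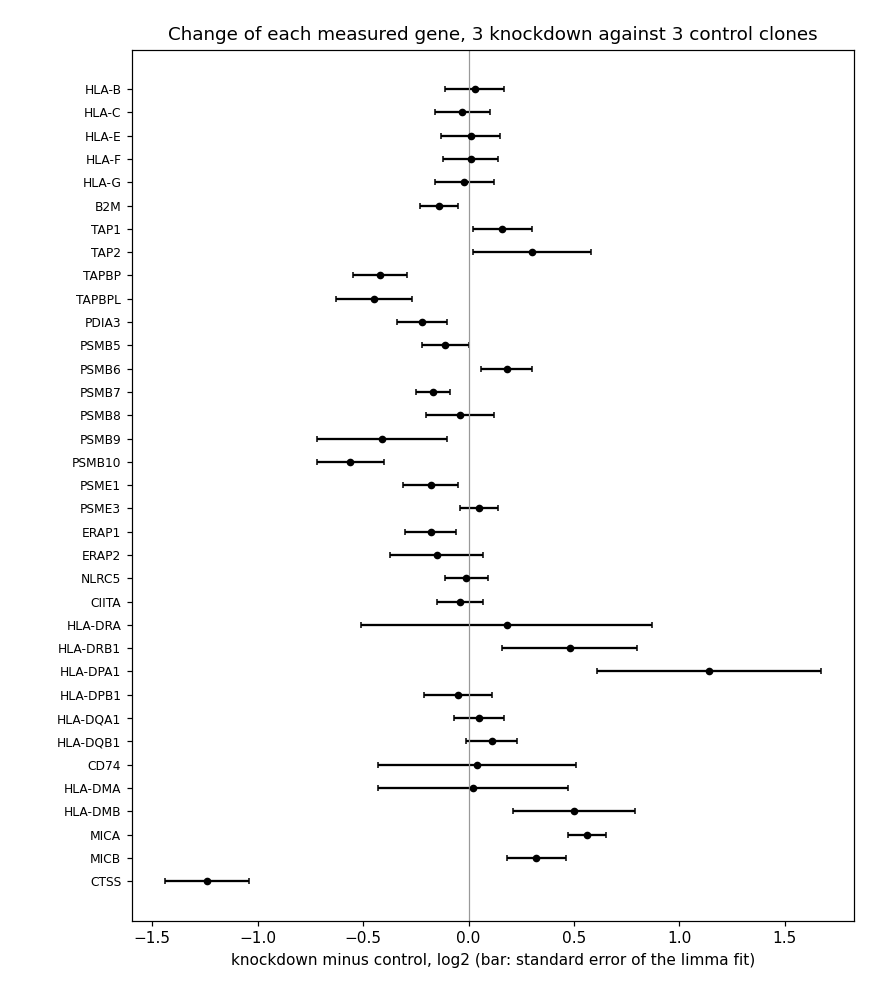
Change of each of the 35 genes between the groups (x axis, knockdown minus control, log2), with bars of 1 limma standard error. CTSS at −1.24 and MICA at 0.56 lie farthest from 0 in units of their error, and wide bars mark genes whose knockdown clones differ, such as HLA-DRA (SE 0.69).

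In the wider pathway, 0 genes of 6 further lists were called between the groups. Before adjustment, 9.11% of all genes were higher and 7.67% lower at a p under 0.05, and the counts below are at that level. Of 26 regulators of MHC genes 23 were measured, with 1 higher and 2 lower. IRF1, an interferon-induced activator of class I genes, read 8.17, 8.51 and 7.51 in knockdown clones, against 8.69, 8.70 and 8.76 in control clones (−0.65, adjusted p = 0.261). Its change was −0.55, −0.21 and −1.20 in clones 1, 2 and 3. NFYA, a subunit of the Y box factor, read 8.06, 9.05 and 8.31 in knockdown clones, against 7.75, 7.72 and 7.96 in control clones (0.66, adjusted p = 0.267).

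Before adjustment, 23 standard proteasome genes had 1 higher and 5 lower, led by PSME4, a nuclear activator (0.59, adjusted p = 0.0941), and PSMD2, a subunit of the regulatory cap (−0.37, adjusted p = 0.1). Of 17 helpers of class I loading and trimming, 3 were higher and 1 lower, led by SEC61A1, the channel of the translocon (−0.59, adjusted p = 0.113), and the cytosolic peptidase NPEPPS (0.44, adjusted p = 0.139). Of 14 class II and lysosome genes, 2 were higher and 5 lower, led by the cathepsins CTSZ (−0.58, adjusted p = 0.107) and CTSL (−0.39, adjusted p = 0.114). Of 14 further ligands of lymphocyte receptors, 0 were higher and 2 lower, the checkpoint ligand CD276 (−0.41, adjusted p = 0.134) and the adhesion ligand NECTIN2 (−0.22, adjusted p = 0.333).

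Interferon-stimulated genes, 35 of 35 measured, had the same order of clones by their medians. Their median change was −0.04, 0.35 and −0.67 in knockdown clones 1, 2 and 3, clone 2 was the highest array for 16 of them (45.7%, against 17.9% of all genes) and clone 3 the lowest for 26 (74.3%, against 25.9%). Some of these genes ran the other way. Clone 2 was the lowest array for 5 (14.3%, against 20.5% of all genes), among them IFI27 (−2.03) and IFITM1 (−1.32). Clone 3 was the highest for 2 (5.71%, against 22.6%), among them SP100 (0.63). Between the groups 0 were called, with PARP14 (−0.65, adjusted p = 0.191) and BST2 (−0.59, adjusted p = 0.205) at the smallest p.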

How the data were processed

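Total RNA of 6 clones was hybridised to Affymetrix arrays after amplification from the polyadenylated end, per the labels' protocols. The deposited values are log2 signals. Per the submitters' processing notes, the authors used RMA and Affymetrix Expression Console 1.0. RMA gives all arrays one distribution, which hides a shift common to most transcripts. Array medians lay between 5.13 and 5.17, and the number of arrays limits the precision.

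Of 54675 probe sets, 62 are controls, 41091 carry 1 symbol, 1801 several and 11721 none. Probe sets with several symbols gave no gene its value. Symbols were updated through a RefSeq table (GRCh38.p14). IFI30 and PSME2 had no probe set of their own under this rule. The design's group fit was limma 3.58.1 in R 4.3.3 (lmFit, eBayes, 4 residual and 3.49 prior degrees of freedom), with Benjamini-Hochberg adjustment over 54613 probe sets. A further fit had 1 coefficient for each knockdown clone. Both were run on simulated data. For the clone fit the knockdown arrays were simulated with the control spread. That simulation could therefore not test whether a lone clone varies as the control clones do. All members are named, and in each pathway list the 2 genes with the smallest p. The members and lists were chosen with earlier results of these data known. Same-numbered clones did not deviate together (correlations of −0.0705, −0.0951 and −0.0414), so the clones were not treated as pairs. These correlations cannot show whether same-numbered clones were handled together.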

Additional observations from a re-analysis of the deposited data

How the results depend on the processing

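Calls between the groups depended on the settings more than the changes did. Over the array 146 genes were called, against 238 with the mean of all probe sets, 88 without probe sets that can match several transcripts, 63 with an intensity trend, 714 with array weights, 1 with the 3′ minus 5′ difference as a covariate and 3 with the clone number as a replicate block. Leaving out 1 clone gave 2 to 1225 genes: 707 without knockdown clone 1, 20 without clone 2, 1225 without clone 3, and 2, 3 and 2 without control clones 1, 2 and 3. Members called (0) became 1 with the mean of all probe sets (MICA), 2 with only genes above a mean of 5 and with array weights (CTSS and MICA), 1 with centred arrays (MICA), and 0 to 4 with a clone left out. The block left 0 members called (adjusted p = 0.152 for CTSS and 0.190 for MICA). Pathway genes called (0) became 3 with the mean of all probe sets, 6 with array weights and 0 to 13 with a clone left out. In single clones, members called depended on the small spread of the controls. Clone 1 (8) had 14 with the mean of all probe sets, 5 without probe sets that can match several transcripts, 16 above a mean of 5, 19 with a trend and 0 to 2 with a control left out. Clone 2 (11) had 18 with a trend and 5 to 8 with a control left out, and clone 3 (12) had 19 with a trend and 8 to 10. With the spread of all 6 arrays each had 0. No shares over all genes are given for these clone settings, so the counts are not read as results about the members. The causes were not tested. The median change stayed between −0.13 and 0.06. Of the single genes' values, 416 kept their direction and side of the threshold, 52 (19 genes) changed sign without a call, and 12 (CTSS, MICA, MICB and HLA-DPA1) gained one. Without probe sets that can match several transcripts 8 members had none left.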
